A study of Mus musculus with 4 samples.

Results

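Hivep3 is a gene of mouse chromosome 4 that spans about 404 kb (chr4:119733759-120138045 in mm10) and encodes a very large zinc finger protein. Its DNA methylation in thymic natural killer T (NKT) cells is described here from every listed 100 bp window that overlapped the annotated gene or the 1000 bp on each side (chr4:119732759-120139045). There were 605 such windows among the 1048575 windows of the table, and they made up 14.9% of the 4064 windows that the range holds. A window was listed with at least 10 reads over both pulled-down libraries and with some CpG content, so an unlisted window is one that missed these bounds, not one without reads.

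The measurements came from 4 libraries, 1 per group. They were PLZFon MeDIP, WT MeDIP, PLZFon input and WT input. All were made from NKT cells of C57BL/6 mice that were sorted from the thymus by binding of a CD1 tetramer. MeDIP enriches sheared DNA fragments that carry 5-methylcytosine by means of an antibody, while input DNA skips that step. For the PLZFon mice no allele or driving promoter is given, and neither the age of the mice nor the number of animals behind a library is stated. The name refers to PLZF, the product of Zbtb16 and a master regulator of the NKT lineage, whose acetylation the series is about. Grouping followed the titles, although the antibody entry reads none for the PLZFon MeDIP library and names the antibody for the input of WT. The table holds no expression values, so the cell type could not be checked against marker transcripts.

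HIVEP3, also known as Schnurri-3 or KRC, belongs to a small family of zinc finger proteins that bind DNA motifs resembling the NF-κB site. It interacts with TRAF2 and with c-Jun, and in T cells it acts on transcription of the interleukin 2 gene. In mouse osteoblasts it promotes the degradation of RUNX2 together with the ubiquitin ligase WWP1, and in mice it has been linked to the development of NKT cells. Methylation of CpG sites within gene bodies is common in mammalian cells, whereas CpG-rich promoters are usually unmethylated.

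With 1 library per group there are no replicates and there was no test of genotype. Each ratio is a difference between libraries, given, unless stated otherwise, with an exact 95% interval of the binomial share that covers counting error only. The libraries held 10633609 reads in PLZFon MeDIP, 15141449 in WT MeDIP, 50374582 in PLZFon input and 60683037 in WT input. A read was counted in about 4 neighbouring windows, so window sums divided by 4 stand for reads, and ratios were scaled to these totals. A locus, bin or window was called different with at least 20 MeDIP reads over both genotypes, a change of 1.5-fold or more and an interval that left out equality.

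The promoter for which a sequence was at hand is shown first, because it lay in a stretch with no listed window. The table of promoters (RefSeq, GRCm38.p6, the primary assembly of mm10) holds 1 promoter of Hivep3, on the plus strand at chr4:119814428-119814727. Its start site lies 80.9 kb inside the annotated gene, so it belongs to a transcript that starts downstream of the outermost start. The capitals mark the 11 CpG sites among the 300 bases, read from 5′ to 3′.
Hivep3 promoter: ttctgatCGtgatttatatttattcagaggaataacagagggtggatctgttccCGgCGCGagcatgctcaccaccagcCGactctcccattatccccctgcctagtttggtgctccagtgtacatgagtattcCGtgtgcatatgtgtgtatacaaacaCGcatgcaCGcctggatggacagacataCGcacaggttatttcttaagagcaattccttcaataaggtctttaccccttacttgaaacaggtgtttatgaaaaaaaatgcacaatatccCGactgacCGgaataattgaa

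None of the 4 windows over this promoter was listed. The nearest listed window before it ended 2227 bp away and held 4 PLZFon and 6 WT MeDIP reads. The nearest listed window after it began 1773 bp away and held 6 PLZFon and 7 WT MeDIP reads. Their inputs held 14 PLZFon and 10 WT reads before the promoter and 7 PLZFon and 12 WT reads after it. Of 15044 promoters in the range of the table, 15.7% overlapped a listed window, and among the 826 whose CpG number was within 1 of that of Hivep3 the share was 24.2%. The CpG number of the Hivep3 promoter exceeded that of 58.9% of all promoters. The motif searched was the dinucleotide CG, which reads the same on both strands. No window was listed within 1000 bp of the outermost annotated start either, whereas 9 windows were listed within 1000 bp of the annotated end. At that end the windows held 83 PLZFon and 98 WT MeDIP counts against 55 PLZFon and 68 WT input counts, summed over windows.

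The first comparison set MeDIP against input over Hivep3 in each genotype. Over the whole gene the MeDIP libraries held 1262 PLZFon and 1818 WT reads, and the inputs 1553 PLZFon and 1778 WT reads. After scaling to depth, MeDIP was 3.85 times the input in PLZFon cells (3.57 to 4.15) and 4.10 times the input in WT cells (3.84 to 4.38). Windows were listed for having at least 10 MeDIP reads, which favours values above 1, so these values do not test for enrichment and do not settle the antibody entry of the PLZFon MeDIP library.

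Reads were spread unevenly along Hivep3. Of the 605 windows, 220 lay in the part of the gene before its midpoint and 385 in the part after it, or 10.8 and 19.0 per 10 kb. The longest stretches without a listed window were chr4:119833501-119852300 (18.8 kb), chr4:119794801-119810600 (15.8 kb) and chr4:119747601-119761000 (13.4 kb), all before the midpoint. In a grid of 10 kb, 3 of the 41 bins held no listed window. Adjacent listed windows formed 189 runs with a median of 3 windows, of which 158 had at most 4 windows, the span of about 1 read.

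**Figure D1:**
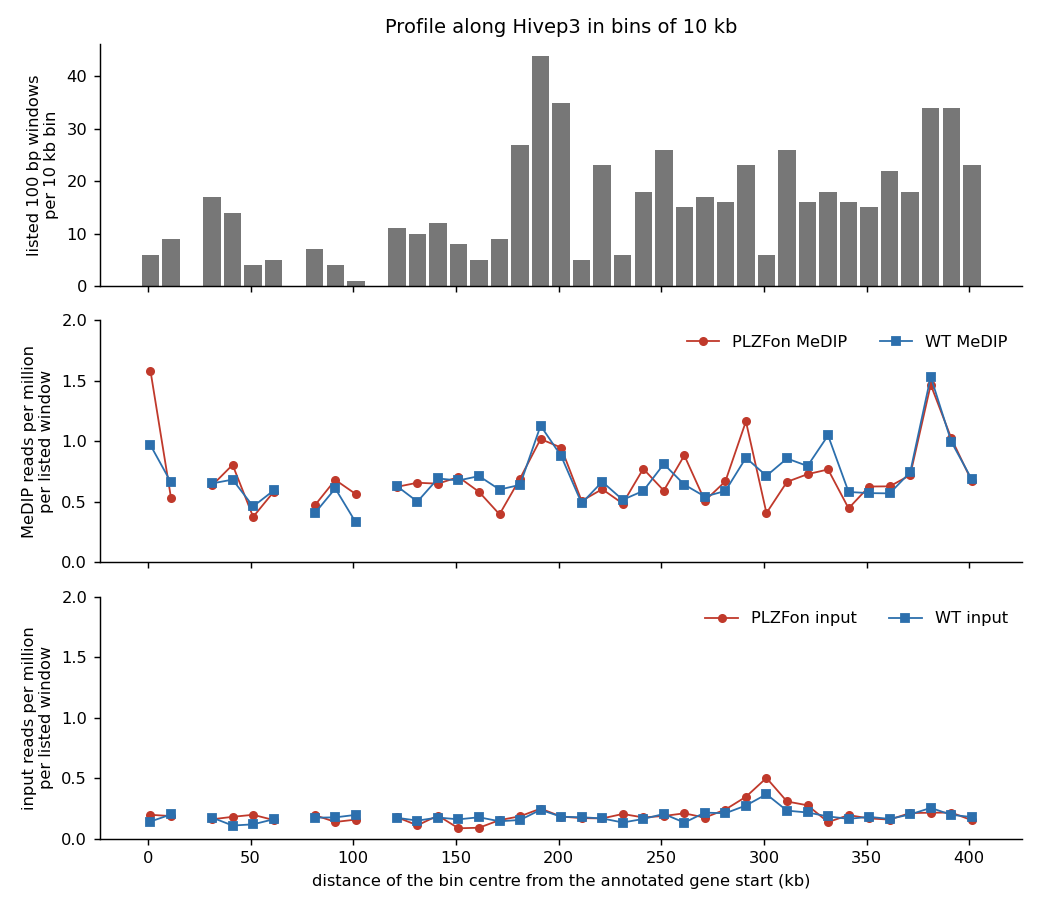
Listed 100 bp windows per 10 kb bin (top) and reads per listed window scaled to the library total (RPM) in the PLZFon and WT MeDIP libraries (middle) and in the PLZFon and WT inputs (bottom), against the distance of the bin centre from the annotated start in kb. Bins without a listed window have no point. Windows are denser after about 180 kb, the MeDIP level is highest at the start bin in PLZFon (1.58) and near 381 kb in WT (1.53), and both inputs are highest near 301 kb (0.503 in PLZFon and 0.368 in WT).

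MeDIP over input was 4.23 in PLZFon (3.72 to 4.80) and 4.39 in WT (3.92 to 4.91) before the midpoint. After it the values were 3.66 in PLZFon (3.33 to 4.02) and 3.95 in WT (3.64 to 4.29). In each genotype the intervals of both parts overlapped, although listed windows were sparser before the midpoint.

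The reads gathered near the middle and near the end of the gene. The 4 fullest bins (chr4:119920001-119940000 and chr4:120110001-120130000), singled out after their values were seen, held 34.3% of the PLZFon and 34.7% of the WT MeDIP counts. The same bins held 26.0% of the PLZFon and 27.6% of the WT input counts and 24.3% of the listed windows. The longest runs of adjacent windows lay in the middle neighbourhood, at chr4:119925601-119927400 with 18 windows and chr4:119928801-119930800 with 20 windows. In the longer of these, MeDIP was 5.98 times the input in PLZFon (4.16 to 8.64) and 6.00 times in WT (4.44 to 8.17). Its PLZFon over WT ratio was 0.909 (0.665 to 1.23).

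The window with the most MeDIP reads of the gene lay near its end, at chr4:120112101-120112200, and had 4 as its CpG factor, the deposited score of CpG content. It held 43 PLZFon and 68 WT MeDIP reads against 11 PLZFon and 16 WT input reads. Scaled to depth this is 4.04 RPM (reads scaled to the library total) in PLZFon and 4.49 RPM in WT, and the ratio of 0.900 (0.600 to 1.34) includes equality. The run of 7 windows around it, chr4:120111601-120112300, had the highest WT MeDIP over input of the 16 runs of at least 6 windows, 10.03 in PLZFon (5.87 to 17.7) and 10.5 in WT (6.74 to 16.7).

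The next windows by reads, at least 1000 bp apart, were chr4:120110901-120111000 and chr4:119930301-119930400. The window at 120110901 held 33 PLZFon and 52 WT MeDIP reads against 10 PLZFon and 19 WT input reads, a ratio of 0.904 (0.566 to 1.42). In its run of 9 windows (chr4:120110201-120111100) the MeDIP ratio was 0.976 (0.656 to 1.44), while the input ratio was 0.589 (0.340 to 0.993), an interval that excludes equality. MeDIP over input of that run was 9.63 in PLZFon (5.71 to 16.7) and 5.82 in WT (3.95 to 8.64), intervals that overlap. The part of the inputs in these values was not tested. Among the 189 runs of the gene, other input intervals exclude equality too, such as 2.72 (1.11 to 7.36) at chr4:119774701-119775200. The window at 119930301, with a CpG factor of 8, held 33 PLZFon and 48 WT MeDIP reads against 12 PLZFon and 13 WT input reads, a ratio of 0.979 (0.609 to 1.56). In all 3 windows the scaled PLZFon level was slightly below the WT level, by less than the counting error.

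**Figure D2:**
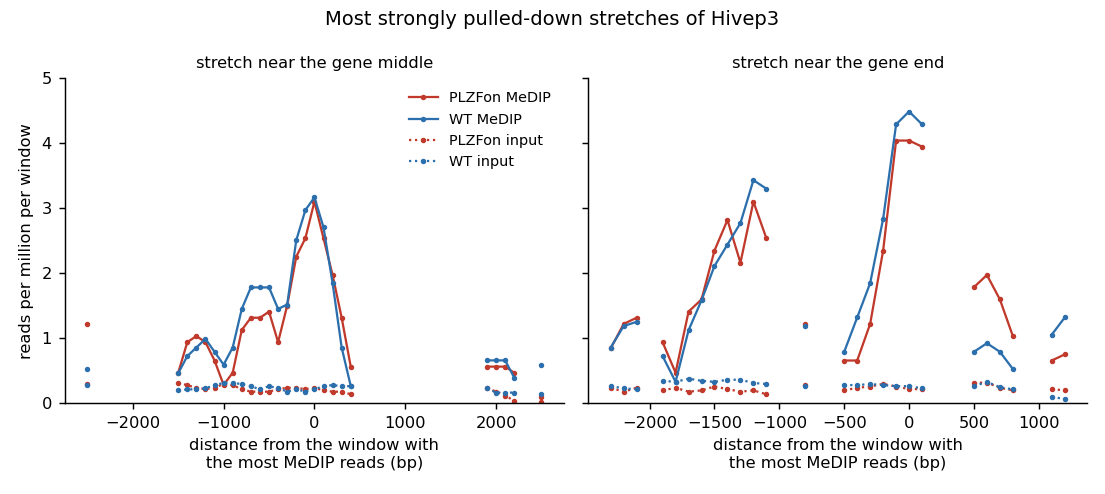
Depth-scaled reads per 100 bp window (RPM) in the PLZFon and WT MeDIP libraries (solid) and in the PLZFon and WT inputs (dotted), within 2500 bp of the window with the most MeDIP reads in the middle neighbourhood (left) and near the gene end (right). Breaks in the lines are unlisted windows. At distance 0 PLZFon and WT MeDIP reach their highest values (in PLZFon on the right shared with the window before), at 3.10 and 3.17 RPM on the left and 4.04 and 4.49 on the right, and about 500 to 800 bp after the right peak PLZFon lies above WT.

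CpG content and pull-down went together in Hivep3 in both genotypes. Windows with a CpG factor of 1, 221 in number, had a MeDIP over input of 3.35 in PLZFon (2.94 to 3.82) and 3.53 in WT (3.15 to 3.96). The 32 windows with a factor of 5 or more had 6.92 in PLZFon (5.20 to 9.24) and 7.47 in WT (5.83 to 9.61). These intervals did not overlap, while the inputs hardly moved, with 0.209 PLZFon and 0.208 WT RPM per window at a factor of 5 or more, against 0.198 and 0.189 at a factor of 1.

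Over all listed windows the values were 3.57 in PLZFon and 3.68 in WT at a factor of 1, and 6.03 in PLZFon and 6.59 in WT at 5 or more. Each Hivep3 interval at these classes included the value of all listed windows. Given its CpG factors, all listed windows would give Hivep3 a MeDIP over input of 4.14 in PLZFon and 4.34 in WT, which lie within, but near the upper bound of, the intervals measured over the gene.

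**Figure D3:**
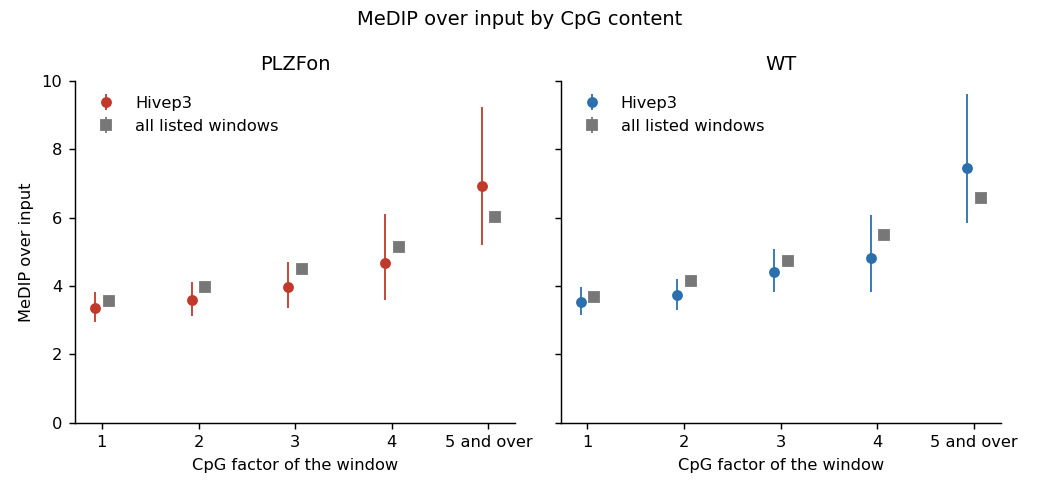
MeDIP over input, scaled to depth, against the CpG factor of the window, in PLZFon (left) and WT (right), for the windows of Hivep3 (circles) and all listed windows (squares). Bars are exact 95% intervals of counting error, and those of all listed windows are smaller than the symbols. Both sets rise with the CpG factor, to 6.92 in PLZFon and 7.47 in WT for Hivep3 at a factor of 5 or more.

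CpG-dense windows of the gene were not all pulled down alike. Of the 3 windows named for their CpG factor, chr4:119926701-119926800, with the highest factor of the gene at 10, held 24 PLZFon and 38 WT MeDIP reads against 17 PLZFon and 20 WT input reads. The window at chr4:119930201-119930300, with a factor of 9, held 27 PLZFon and 45 WT MeDIP reads against 11 reads in each input. By contrast, chr4:120059301-120059400, also with a factor of 10, held only 8 PLZFon and 9 WT MeDIP reads against 13 PLZFon and 16 WT input reads. By MeDIP reads these windows stood at percentiles 65.1, 69.9 and 26.3 of the 3940 listed windows with a factor of at least 9. The other Hivep3 window with such a factor, at 120111901, is named outside the rules. It held 25 PLZFon and 43 WT MeDIP reads and stood at percentile 68.1, near the higher windows. The weakly pulled-down CpG-dense window was low in both genotypes, with a ratio of 1.27 (0.425 to 3.70).

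The second comparison asked whether PLZFon and WT cells differed in methylation over Hivep3. Over the whole gene they did not differ beyond counting error. The PLZFon over WT ratio of MeDIP reads was 0.988 (0.919 to 1.06), and that of the inputs was 1.05 (0.983 to 1.13). Scaled by the listed windows or by TMM factors the MeDIP ratio was 1.02, on the other side of 1, with intervals that include equality as well. The ratio was 1.01 (0.897 to 1.14) before the midpoint of the gene and 0.975 (0.890 to 1.07) after it. The authors' relative methylation score had a median of 0.58 in PLZFon and 0.63 in WT over the gene, against 0.57 and 0.63 over all listed windows.

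Of the 38 bins with a listed window, 31 reached 20 MeDIP reads, and 0 of these were called, against 2.08% of the 60900 such bins of the table (0.78% higher and 1.3% lower in PLZFon). Of the inputs, 0 of 34 bins were called, against 1.14% of 64503 (0.727% higher and 0.417% lower). Ratios lay above 1 in 13 bins and below 1 in 18, with a median of 0.975, and 0 of 31 intervals excluded equality, against 3.08% in the table. The SD of the log2 ratio over these bins was 0.33 and counting alone gives about 0.38. For the inputs the SD was 0.38 and the counting value 0.36. Only listed windows were summed, and most runs of them were short, so reads are understated and the counting values are raised. These SDs therefore cannot decide whether the MeDIP bin ratios varied by more than counting alone gives.

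**Figure D4:**
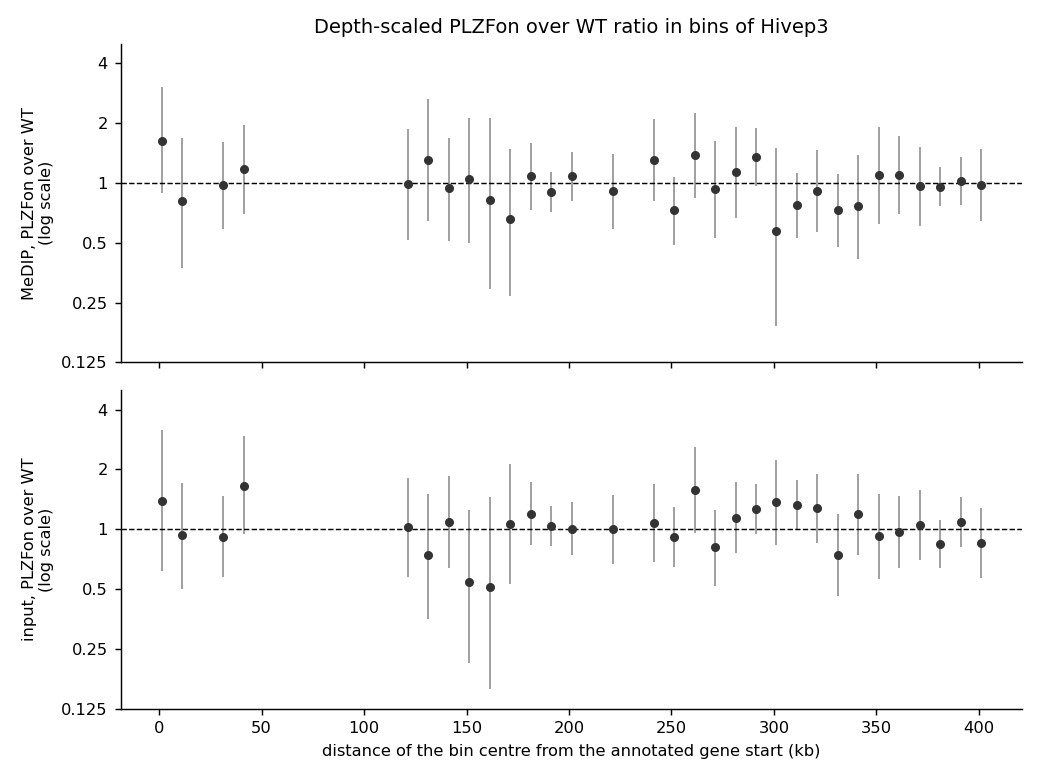
Depth-scaled ratio of PLZFon over WT in the 31 bins of 10 kb with at least 20 MeDIP reads, for MeDIP (top) and input (bottom), on a log axis against the distance of the bin centre from the annotated start in kb. Bars are exact 95% intervals of counting error and the dashed line is equality. MeDIP ratios run from 0.570 to 1.63 and every interval crosses the line in both panels.

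The 3 highest bins were that of the annotated start (chr4:119732759-119740000) at 1.63 (0.886 to 3.04), chr4:119990001-120000000 at 1.38 (0.841 to 2.25) and chr4:120020001-120030000 at 1.35 (0.961 to 1.89). Their input ratios were also above 1, at 1.39, 1.57 and 1.26. The 3 lowest bins were chr4:120030001-120040000 at 0.570 (0.191 to 1.49), chr4:119900001-119910000 at 0.660 (0.271 to 1.49) and chr4:119980001-119990000 at 0.730 (0.488 to 1.08). The bin of the annotated end (chr4:120130001-120139045) stood at 0.977 (0.640 to 1.48).

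By WT MeDIP over input the highest bins were the start bin, with 7.97 in PLZFon and 6.78 in WT, chr4:119770001-119780000, with 4.44 in PLZFon and 6.25 in WT, and chr4:120110001-120120000, with 6.82 in PLZFon and 6.01 in WT. The lowest were chr4:120030001-120040000, with 0.810 in PLZFon and 1.94 in WT, chr4:120000001-120010000, with 2.91 in PLZFon and 2.52 in WT, and chr4:120010001-120020000, with 2.77 in PLZFon and 2.80 in WT. In all 31 bins the PLZFon and WT intervals of MeDIP over input overlapped. The WT intervals of the 3 highest bins, in the order named, were 3.27 to 14.7, 3.61 to 11.0 and 4.79 to 7.55, and they overlap each other. Those of the start bin and of chr4:119770001-119780000 include 3.82, the WT median of the 31 bins.

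The bin profile was shared in part between the genotypes. Across the 31 bins the log2 MeDIP reads per window of PLZFon and WT had a Pearson r of 0.70 and a Spearman rho of 0.58. For the inputs these were 0.65 and 0.58. The bins share their windows, which were listed on the sum of both MeDIP libraries, and their CpG content, so these are descriptions only.

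The lowest bin lay in a region where the inputs were raised. In chr4:120030001-120040000 the inputs held 0.503 PLZFon and 0.368 WT RPM per window, against 0.204 and 0.194 over the gene. Its 6 windows held 26 PLZFon and 65 WT MeDIP counts, and 152 PLZFon and 134 WT input counts. Together with the next bin, a pair singled out after its values were seen, MeDIP stood at 0.742 times WT (0.521 to 1.05) while the input stood at 1.34 (1.04 to 1.72). MeDIP over input was 1.79 in PLZFon (1.28 to 2.47) and 3.22 in WT (2.46 to 4.22) over the pair. The part of the raised inputs in the low ratio was not tested.

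Divided by the input ratio of the same bin, 1 of 30 bins was called, chr4:120040001-120050000, at 0.585 (0.370 to 0.923), against 2.32% of 59162 bins of the table. This measure, with an interval from the normal approximation on the log scale, was added after the values were seen. In 5 kb bins 1 of 43 was called (chr4:120040001-120045000, 0.565, 0.315 to 0.976), and on a grid shifted by 5 kb 1 of 33 (chr4:120035001-120045000, 0.501, 0.287 to 0.842). Both were lower in PLZFon. The background was 2.34% of 5 kb bins (0.83% higher and 1.51% lower) and 2.1% of shifted bins (0.782% higher and 1.32% lower), so these shares of Hivep3 bins are near it.

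Of 220 Hivep3 windows with at least 20 MeDIP reads, 6 were called higher in PLZFon (2.73%, against 1.28% of the table) and 4 lower (1.82%, against 2.55%). Together these were 4.55%, against 3.83% of the 409114 such windows of the table. The inputs of Hivep3, under the same rule, gave 12 higher and 1 lower of 360 windows, or 3.61%, against 3.47% of 554402 in the table (2.02% higher and 1.45% lower). Neighbouring windows share reads, and the 10 called windows, singled out after their values were seen, come from 7 places.

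Among these windows with at least 20 MeDIP reads, the highest ratio was that of chr4:120029201-120029300, with 19 PLZFon and 6 WT MeDIP reads, a ratio of 4.51 (1.73 to 13.8), and 12 PLZFon and 10 WT input reads. It has a CpG factor of 1. The second was chr4:119736501-119736600, 2.74 kb from the annotated start, with 16 PLZFon and 7 WT MeDIP reads, a ratio of 3.25 (1.27 to 9.36). Its inputs held 13 PLZFon and 7 WT reads. In this place near the start a second window was called (chr4:119736301-119736400), with 30 PLZFon and 24 WT reads and a ratio of 1.78 (1.01 to 3.18).

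The lowest ratios among windows with at least 20 MeDIP reads were those of adjacent windows, chr4:120042401-120042500 with 3 PLZFon and 23 WT MeDIP reads (ratio 0.186, 0.0357 to 0.615) and chr4:120042501-120042600 with 5 PLZFon and 24 WT reads (0.297, 0.0884 to 0.793). Their inputs held 14 reads in each genotype in the first window and 19 PLZFon and 15 WT reads in the second. They lie in the bin pair described above as low in PLZFon MeDIP. They also lie 13.2 kb from the window at 120029201.

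The other called windows were that at 119971201 (19 PLZFon and 11 WT reads) and the neighbours at 120112601 (19 PLZFon and 12 WT) and 120112701 (21 PLZFon and 14 WT) on the higher side. On the lower side they were 119921701 (8 PLZFon and 26 WT) and 119981501 (5 PLZFon and 20 WT). The higher pair at 120112601 lies 500 bp after the window with the most reads of the gene, where PLZFon was not higher, with 16 input reads in PLZFon and 16 to 20 in WT. At 119981501 the input was low in PLZFon as well, with 3 PLZFon and 13 WT reads, and at 119921701 it was higher, with 17 PLZFon and 9 WT reads.

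In the authors' deposited table no window of Hivep3 had an adjusted p below 0.05, the smallest being 0.655, against 0.0144% of all listed windows. At an unadjusted p below 0.05 the authors' deposited table had 21 Hivep3 windows, 10 higher and 11 lower in PLZFon, or 3.47% against 3.31% of all listed windows. The smallest p of the gene in the authors' deposited table, 0.000538, was that of the window at 120029201, with a log2 fold change of 2.20. These edgeR p-values, too, compare single libraries.

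Noncoding genes are annotated inside Hivep3, and MeDIP reads do not tell which strand or transcript they belong to. Gm38632 (chr4:120002594-120033393) had 54 listed windows, with MeDIP at 1.20 times WT (0.933 to 1.54) and input at 1.17 (0.954 to 1.43). Its MeDIP over input was 2.89 in PLZFon (2.28 to 3.65) and 2.81 in WT (2.25 to 3.50), with raised inputs of 0.288 PLZFon and 0.247 WT RPM per window. Gm36215 (chr4:120065381-120074749) had 11 windows and a ratio of 0.654 (0.292 to 1.37), on 11.3 PLZFon and 24.5 WT reads.

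The 100 kb before the gene had 218 listed windows, with MeDIP over input of 5.50 in PLZFon (4.92 to 6.15) and 5.82 in WT (5.29 to 6.41). Both intervals lie above those of the gene. The 100 kb after it had 103 windows, with 3.40 in PLZFon (2.76 to 4.18) and 3.51 in WT (2.95 to 4.18). The PLZFon over WT ratio was 0.938 (0.851 to 1.03) before the gene and 0.933 (0.761 to 1.14) after it. The mean CpG factor of listed windows was 2.51 before the gene, 2.21 over it and 1.92 after it. The part of CpG content in the MeDIP over input of these stretches was not tested.

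Among 417 protein-coding loci of at least 200 kb with at least 200 MeDIP reads, Hivep3 ranked 151 by length. It was densely listed, with 14.9 windows per 10 kb against a median of 8.13, at percentile 78.4. Its MeDIP over input stood at percentile 17.5 in PLZFon and 26.6 in WT, below medians of 4.29 and 4.39, and its mean CpG factor of 2.21 at percentile 35.7. Its PLZFon over WT MeDIP ratio was at percentile 62.1 and its input ratio at percentile 85.6. Loci that overlap each other share windows.

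**Figure D5:**
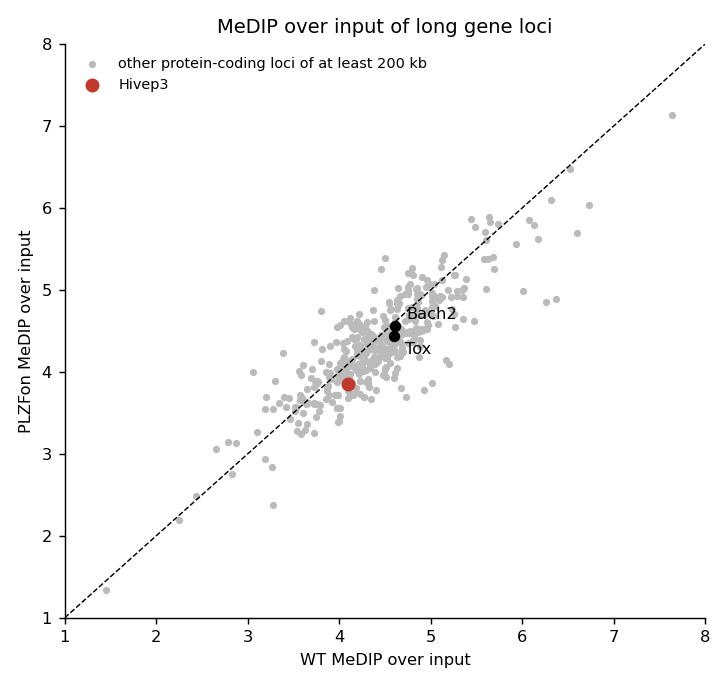
MeDIP over input of 417 protein-coding loci of at least 200 kb with at least 200 MeDIP reads, PLZFon on the vertical and WT on the horizontal axis, both linear. The dashed line is equality. Hivep3, at 3.85 and 4.10, lies in the cloud below its middle, and Bach2 and Tox lie higher on both axes, just under the line.

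The 5 long loci nearest to Hivep3 over 4 standardised measures (log2 MeDIP over input of each genotype, log2 PLZFon over WT and listed windows per length) were Tmem132c, Tjp1, Tead1, D430041D05Rik and Nav1. Their distances ran from 0.396 to 0.539, against a median of 1.89 over all long loci. Tmem132c, the nearest, had a MeDIP over input of 4.03 in PLZFon and 3.98 in WT and a ratio of 0.978 (0.898 to 1.07).

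Bach2, Tox and Lef1, genes of T cell regulators on these chromosomes, were compared with Hivep3 by the odds ratio of reads. The intervals of these comparisons are exact conditional intervals and cover counting error only. Bach2, which encodes a transcriptional repressor of lymphocytes, had the same ratio within counting error, the ratio of Hivep3 being 0.988 times that of Bach2 (0.896 to 1.09). Its pull-down was stronger: MeDIP over input of Hivep3 was 0.844 times that of Bach2 in PLZFon (0.762 to 0.936) and 0.889 times in WT (0.812 to 0.972). Tox, a regulator of thymic T cell development, did not differ detectably from Hivep3 in either measure, with 0.982 (0.816 to 1.18) for the ratio and 0.868 (0.712 to 1.06) for PLZFon pull-down. Lef1, a transcription factor gene of early T cells, differed in each measure: the ratio of Hivep3 was 1.73 times that of Lef1 (1.49 to 2.01). Lef1 is an extreme comparator. Its own ratio, 0.571, was the lowest among 3556 loci that reached 200 MeDIP reads, whereas Hivep3 stood at percentile 64.2 there. The contrast in this ratio thus describes Lef1 more than Hivep3. In WT the pull-down of Hivep3 was 0.803 times that of Lef1 (0.709 to 0.909), and in PLZFon it was 1.28 times (1.09 to 1.51).

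The genes of the HIVEP3 pathway and of NKT cell development were taken from a list of 41 that includes Hivep3 itself. Of these, 19 lay in the range of the table, 17 reached 20 MeDIP reads, 0 were called higher and 1 was called lower in PLZFon, against 0.391% and 0.991% of 7668 protein-coding loci. Among the 17, 6 ratios were above 1 and 11 below, while 62.9% of all 7668 loci were below 1. The median log2 ratio of the 17 was -0.02, beside -0.06 over all 7668 loci. That list median is the value of Hivep3 itself. The called member was Lef1, the extreme comparator named above. The other HIVEP family genes were not analysed here.

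Traf2, whose product binds HIVEP3 in signalling from tumour necrosis factor receptors, held 82.5 reads in PLZFon and 155 in WT, which gives 0.759 (0.574 to 0.998) with an input ratio of 1.01. Its interval excludes equality, but the size is under the 1.5-fold asked. Jun, the gene of the partner c-Jun, had no listed window. Il2, the target gene of that pair, had 8.5 PLZFon and 5.25 WT reads, under the minimum. Wwp1, the ligase that acts with HIVEP3 in bone, had 0.961 (0.765 to 1.21), and S100a4, a gene reported as a target of the protein, had 1.33 (0.648 to 2.71) on 17.3 PLZFon and 18.5 WT reads.

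Of the NF-κB genes, Nfkb1 had a ratio of 0.991 (0.887 to 1.11) and Relb 0.961 (0.774 to 1.19). Of the lineage factors, Runx3 had 0.878 (0.759 to 1.02), Gata3, the factor of interleukin 4 producing cells, 1.36 (0.780 to 2.38), and Zbtb7b, the factor of CD4 T cells, 0.960 (0.542 to 1.67). Id3, an inhibitor of E proteins, had 0.532 (0.189 to 1.32) on 7 PLZFon and 18.8 WT reads. The receptor genes Slamf1 and Slamf6, needed for NKT cell selection, had 0.841 (0.605 to 1.16) and 1.02 (0.618 to 1.68), and Cd1d1, the gene of the lipid-presenting molecule, had 0.997 (0.634 to 1.55). The intervals of these NF-κB, lineage and receptor genes all include equality.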

How the data were processed

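Libraries were grouped by their titles. Reads were aligned with BWA to mm10 and edgeR was used, per the submitters' processing notes; versions are not given in the sources used here. Column names of the deposited table mention sorted, unique alignments. The authors deposited raw counts and RPKM per window of 100 bp, a relative methylation score, a CpG score and edgeR log2 fold changes with p-values. The table ends within chromosome 7.

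Library totals were taken as those that reproduce every deposited RPKM from its count. Between windows with fewer than 60 input reads, the mean scaled squared difference of the deposited input counts levelled off at 4 windows (1.13 in PLZFon and 1.15 in WT), so sums were divided by 4. In the MeDIP libraries it rose further (3.35 to 5.02 in PLZFon and 4.75 to 7.46 in WT from 4 to 8 windows), so the number is less certain there. Only listed windows were summed, which understates reads and widens intervals. Neither amplification duplicates nor variation among animals enters the intervals. Gene positions came from RefSeq (GRCm38.p6), without strand or exons, so exons and introns were not separated. Windows, bins and loci were named by rules of rank in reads, CpG factor, ratio and pull-down, plus all list members except for a gene that is not reported here by name; features named outside the rules are said to be.

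The gene, its members and the lists were chosen with earlier results of these data known. Scripts used Python 3.11.15 and edgeR 4.0.16 (TMM factors), and the interval and call rule were tested on simulated data. Alternatives varied the scaling, flanks, bins, read minimums, window overlap and fold.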

Additional observations from a re-analysis of the deposited data

How the results depend on the processing

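Over the whole gene the PLZFon over WT MeDIP ratio lay between 0.939 (divided by the input ratio, added after seeing the data) and 1.02 (scaled by the sum over listed windows, by TMM factors or within CpG factor classes) in all 11 alternatives, and every interval included equality. The input ratio stayed between 1.04 and 1.05 in 3 alternatives. With windows of at least 20 MeDIP reads, MeDIP over input was 5.70 in PLZFon and 5.93 in WT. Without the 4 fullest bins, an alternative added after seeing the data, it was 3.42 in PLZFon and 3.70 in WT. The count of called bins was 0, and it was 1 with bins of 5 kb, 1 with bins shifted by 5 kb and 1 after division by the input ratio. It stayed at 0 in the 6 other alternatives. No window of Hivep3 had 60 input reads, so leaving such windows out changed nothing. No paired analysis was possible because each group has 1 library. Depth limits bins and single windows: the interval was 0.191 to 1.49 for the lowest bin and 1.73 to 13.8 for the window at 120029201.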
